A study of Rattus norvegicus with 8 samples.

Results

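Matrix metalloproteases are zinc-dependent enzymes, secreted or held at the cell surface, that are made as inactive proenzymes and cut collagens, elastin, gelatin and other matrix proteins. Tissue inhibitors of metalloproteases (TIMPs) are small secreted proteins that block their active sites. In the lung, alveolar macrophages are a known source of both, and macrophage elastase (MMP12) and gelatinase B (MMP9) are the family members most often linked to this cell. The 10 genes described here were chosen by name, with earlier results of these data known. They were the proteases Mmp2, Mmp7, Mmp8, Mmp9, Mmp12, Mmp13, Mmp14 and Mmp19 and the inhibitors Timp1 and Timp2. All 10 were on the array, as 12 probes, out of 36121 named genes.

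RNA came from NR8383, a cell line set up from the lung lavage of a normal rat and carried as a mixture of attached and floating macrophages. There were 4 arrays from cells at passage 200 (P200) and 4 from cells at passage 20 (P20), all seeded in the same way 48 h before harvest and with no other treatment in either group. The replicates are called biological in the labels, and whether they came from separate long-term cultures is not given in the sources used here, so the p-values measure the spread between these samples. This is 1 line, which limits it as a model of the alveolar macrophage.

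Each sample was hybridised to a single-colour array, on which a probe is a designed oligonucleotide of 60 bases. Signal is given on a scale on which the 75th percentile of each array is 100, and it compares arrays for 1 probe, not probes with each other. Between 51.0% and 52.8% of the spots of a P200 array and between 52.0% and 54.5% of those of a P20 array were well above background, as marked by the scanner software. All 8 arrays lay on 1 slide and were read in 1 scan. Slide row 1 held P200 replicates 2 to 4 and P20 replicate 1, and row 2 the others, so passage and slide row were largely confounded. Of 13 macrophage markers on the array, 11 were above background on all 8 arrays, among them Cd68, Ptprc and Csf1r, while Adgre1 was on none. Of the 11 tested, 0 rose, 2 fell and 9 did not pass, 18.2% called beside 11.5% of all genes. Those that fell were the integrin Itgam (-0.78 ± 0.13, limma adjusted p = 0.00516) and the sialic acid receptor Siglec1 (-0.56 ± 0.14, limma adjusted p = 0.0348). The summed marker signal, to which Lyz2 contributed most, was 131920 to 138240 at P200 and 138570 to 161270 at P20. These ranges nearly touched, and the groups of Lyz2 alone overlapped (limma adjusted p = 0.199). The sum adds signals of probes that cannot be compared with each other, so it is only a rough guide. Its part in the results was not tested.

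The probes set what was measured. The sequences of Timp1, Mmp9 and Mmp12 are shown whole, and of Mmp7 the first 30 bases, because the results described at most length rest on these probes. They are written 5′ to 3′ in lower case, with nothing set apart. The positions are those of the deposited files on assembly rn4.
Timp1: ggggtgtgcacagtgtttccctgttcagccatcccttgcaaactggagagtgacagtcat
Mmp9: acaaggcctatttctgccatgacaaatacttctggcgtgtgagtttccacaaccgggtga
Mmp12: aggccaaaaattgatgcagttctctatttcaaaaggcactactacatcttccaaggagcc
Mmp7: agtctgacaaatctcaggtaacacgacaga

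The Timp1 probe matched the minus strand of chromosome X from 12542700 to 12543703, and the Mmp12 probe the plus strand of chromosome 8 from 4259057 to 4259413. Both spans are longer than the 60 bases of the probe, so each crosses an intron and reads spliced RNA. The Mmp9 probe lay on the plus strand of chromosome 3 from 155992463 to 155992522 and the Mmp7 probe on the plus strand of chromosome 8 from 4533647 to 4533706. No 2 probes of different members shared more than 10 bases in a row over 64 pairs compared, so the probes of these related genes had no long stretch in common. The Timp1 and Timp2 probes, both Mmp14 probes and 1 of the 2 Mmp2 probes were printed on 10 spots of every array, which gives a technical error beside the spread between arrays. All other probes of the set had 1 spot per array.

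A probe counted as above background on an array where more than 0.5 of its usable spots were, and a gene was tested where its probe was above background on all 4 arrays of at least 1 group. Of the 10 genes, 8 could be tested with limma across all 15643 genes, and 8 passed at an adjusted p under 0.05, 3 higher and 5 lower at P200. Across all genes 11.5% passed, 6.00% higher and 5.52% lower at P200. The members, and the gene lists below, were picked with earlier results known, so a share above that of all genes is no independent result. Mmp2, Mmp14 and Timp1 entered the test only through their P20 signal, so a difference was built into their entry. Of the 5 that were above background on all 8 arrays, 3 were higher and 2 lower, in a fit over 14704 such genes of which 10.0% passed, 5.53% higher and 4.48% lower. For each of the 8 genes the ranges of P200 and P20 did not overlap, with P200 above for 3 and below for 5. Such separation was seen in 19.6% of all genes, with P200 above in 9.49% and below in 10.1%. For Mmp2, Mmp14 and Timp1 the separation was in part built in by the same entry. Its share among genes above background on all 8 arrays was not counted.

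**Figure D1:**
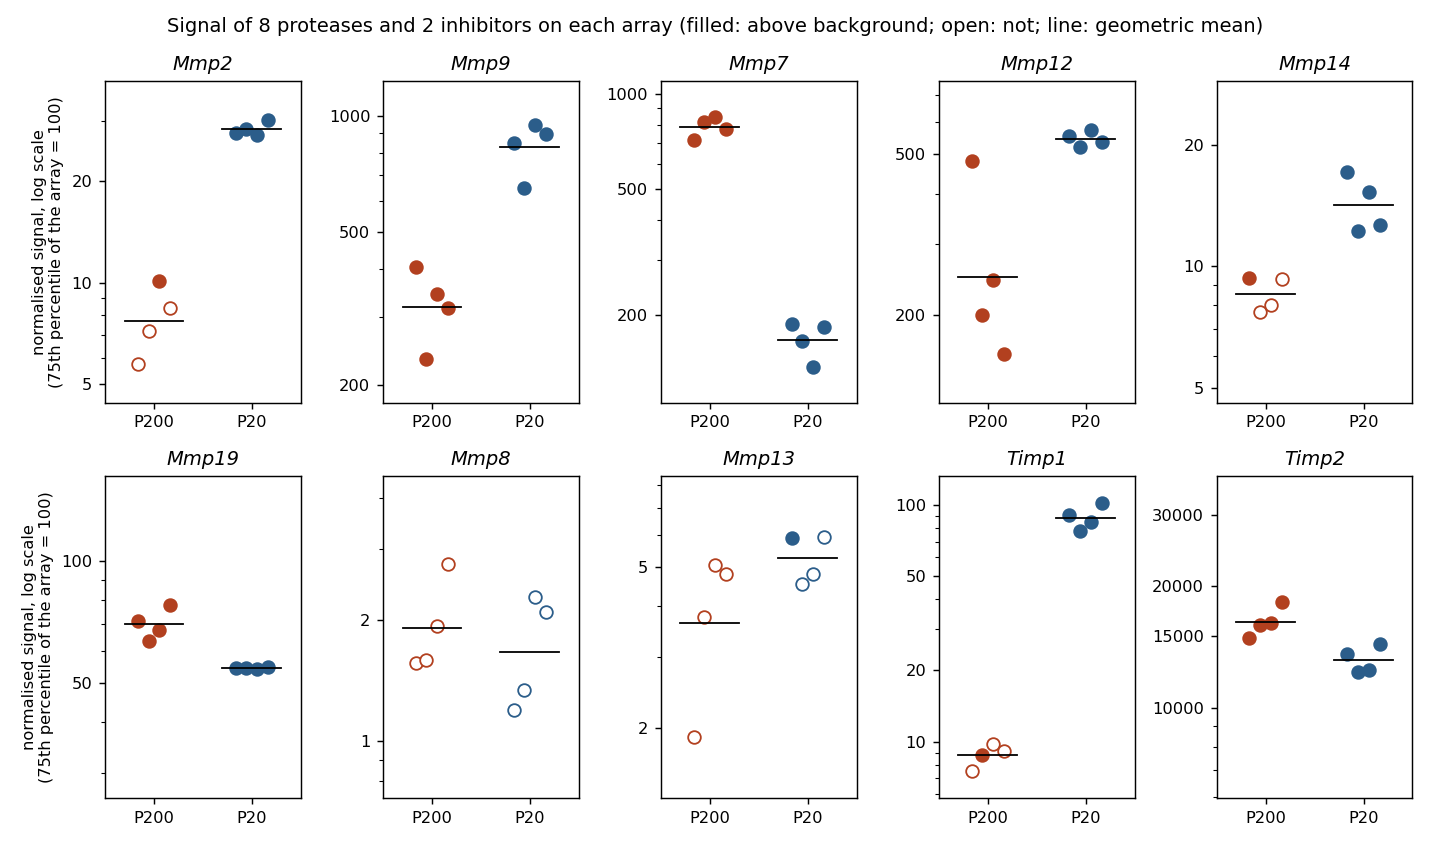
Each panel plots the normalised signal of 1 gene on the 8 arrays, on a log axis on which the 75th percentile of an array is 100, with P200 to the left of P20. Filled points were above background, open points were not, and the line is the geometric mean. Mmp7 at P200 sits between 716 and 845, above all P20 points, while Timp1 at P200 sits below 10 with mostly open points.

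The gelatinases MMP2 and MMP9, which cut denatured collagen and basement membrane collagen, were both lower at P200. Mmp9 had a signal of 405, 234, 345 and 317 on the 4 P200 arrays, against 850, 647, 945 and 898 on the 4 P20 arrays. Every P200 value lay below every P20 value. Mmp9 averaged 325 ± 71 at P200 and 835 ± 131 at P20 (SD, n = 4 each), a fall of 2.59-fold (log2 change -1.37 ± 0.18 SE, limma adjusted p = 0.00129). It passed the test in each of 21 other settings, between -1.49 and -1.22 on the log2 scale.

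Mmp2 had a signal of 5.74, 7.21, 10.1 and 8.40 at P200, against 27.7, 28.5, 27.3 and 30.3 at P20. The P20 arrays were close together and all well above background on 10 of 10 spots, while only P200 replicate 3 counted as above background, with 6 of 7 usable spots. As fitted, the fall was 3.69-fold (log2 change -1.89 ± 0.15 SE, n = 4 per group, limma adjusted p = 7.11e-05). Its size rests on dim P200 values: it was -0.70 with another background correction (normexp on spot means) and -0.81 with the authors' raw spot medians, and passed in both. Normexp was run with an offset of 50 added to the signal, and the medians keep their background, so both shrink changes of dim probes. A second Mmp2 probe, above background on no array, read 2.55, 4.40, 1.96 and 2.40 at P200 and 5.11, 6.24, 8.36 and 10.1 at P20. It was not tested. Its groups did not overlap, but these are values at background and add nothing to the call.

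Mmp7 encodes matrilysin, a small protease without the C-terminal hemopexin domain that most of the family carries. Of the 3 members called higher at P200 it had the largest change. Its signal was 716, 816, 845 and 773 at P200, against 188, 166, 138 and 184 at P20. The lowest P200 array lay far above the highest P20 array. Mmp7 averaged 787 ± 56 at P200 and 169 ± 23 at P20 (SD, n = 4 each), a rise of 4.68-fold (log2 change 2.23 ± 0.11 SE, limma adjusted p = 2.18e-06). Of all genes tested, 1.12% had a larger change in either direction.

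Mmp12 encodes macrophage elastase, which cuts elastin. It had a signal of 483, 200, 245 and 161 at P200, against 555, 521, 574 and 537 at P20. The P20 arrays agreed closely, with a log2 SD of 0.060, while the P200 arrays spread with an SD of 0.69, and P200 replicate 1 came close to the P20 range without entering it. The fall was 2.20-fold (log2 change -1.14 ± 0.29 SE, n = 4 per group, limma adjusted p = 0.0385). Leaving out any 1 array other than P200 replicate 1 ended the call, in 7 of 8 such fits, with adjusted p up to 0.100. Without P200 replicate 1 the change was -1.46 with an adjusted p of 0.000372 by the same limma test. In slide row 2, which held P200 replicate 1 and P20 replicates 2 to 4, the difference was -0.17, and in row 1, which held P200 replicates 2 to 4 and P20 replicate 1, it was -1.48. With slide row as a block the change was -0.83 (limma adjusted p = 0.138), and the part of slide position in the result was not tested further.

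Mmp14 encodes membrane-type 1 metalloprotease, which sits in the plasma membrane, cuts fibrillar collagen and activates the MMP2 proenzyme together with TIMP2. The probe that stands for the gene read 9.35, 7.70, 8.01 and 9.30 at P200, against 17.1, 12.2, 15.3 and 12.7 at P20. The groups did not overlap, but only P200 replicate 1 was above background. The fitted fall was 1.66-fold (log2 change -0.73 ± 0.12 SE, n = 4 per group, limma adjusted p = 0.00575). A second probe, which shares 50 of its 60 bases with the first, gave -0.72 ± 0.14 and was above background on no P200 array, so that it was at least 1.37-fold lower there (limma adjusted p = 0.0131 over all probes). The call depended on how background was treated: the change was -0.18 (adjusted p = 0.352) with normexp and -0.21 (adjusted p = 0.330) with the raw spot medians, both by limma. Because both settings shrink changes of probes as dim as these, they cannot decide whether the call holds. The call also ended with arrays centred on their median, where the change was -0.77 (SE 0.26, limma adjusted p = 0.078).

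Mmp19 encodes a basement membrane protease found in many tissues. Its signal was 71.3, 63.4, 67.6 and 77.9 at P200, against 54.4, 54.4, 54.1 and 54.8 at P20. The P20 arrays lay close together and every P200 array was above them. The rise was small, 1.28-fold (log2 change 0.36 ± 0.07 SE, n = 4 per group, limma adjusted p = 0.0127). It was also 1 of the calls that ended when arrays were centred on their median, where the change was 0.32 (limma adjusted p = 1.00), or when all probes entered the test (limma adjusted p = 0.131). With median centring the change was nearly the same, but the fit gave every tested member the same SE, 0.26.

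The collagenases of the set were not measurable at this signal. Mmp8, known as neutrophil collagenase, was above background on 0 of 8 arrays, with a signal of 1.56 to 2.75 at P200 and 1.19 to 2.28 at P20. Mmp13, the main interstitial collagenase of rodents, was above background on P20 replicate 1 only, with 1.89 to 5.07 at P200 and 4.54 to 5.94 at P20. Neither entered the test. With no background filter the differences were 0.20 ± 0.28 SE (limma adjusted p = 0.813) and -0.53 ± 0.31 SE (limma adjusted p = 0.778), n = 4 per group.

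The inhibitors moved in opposite directions, but the rise of Timp2 was small and its call ended in 13 of 21 other settings. TIMP1 binds the MMP9 proenzyme as well as active proteases, and its transcript had the largest fitted change of the 8 genes tested, a size that depends on P200 signal at background. Timp1 had a signal of 7.52, 8.77, 9.75 and 9.17 at P200, against 90.8, 77.7, 84.8 and 102 at P20. The P200 values lay far below the P20 values and within the range where signal is lost: the dimmest probe above background had a signal of 6.83 to 10.3 on the 4 P200 arrays. On P200 replicates 1 to 4, 4 of 9, 6 of 7, 4 of 10 and 4 of 10 usable spots were above background, so only replicate 2 counted as above it, and 9 of 9 or 10 of 10 were on each P20 array. The fall was 10.1-fold as fitted (log2 change -3.33 ± 0.11 SE, n = 4 per group, limma adjusted p = 1.91e-07). With normexp background correction the change was -1.74 and with raw spot medians -2.01 on the log2 scale, both smaller in size than that of Mmp7 in the same settings (2.05 and 2.09). Both settings shrink changes of dim probes more than those of bright ones, so this order does not rank Timp1 and Mmp7. Timp1 passed in each of the 20 other settings in which it could be tested.

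TIMP2 blocks most of the family and also serves as the bridge through which MMP14 captures the MMP2 proenzyme. Timp2 was above background on every usable spot, with a signal of 14885, 16039, 16219 and 18240 at P200, against 13540, 12240, 12381 and 14370 at P20. The lowest P200 array was above the highest P20 array, by a small step. Timp2 averaged 16346 ± 1394 at P200 and 13133 ± 1010 at P20 (SD, n = 4 each), a rise of 1.24-fold (log2 change 0.32 ± 0.08 SE, limma adjusted p = 0.0458). This call sat at the threshold. It ended in 13 of 21 other settings, in 6 of the 8 fits that left out 1 array (adjusted p up to 0.131), and with slide row as a block (0.26, limma adjusted p = 0.173). It held when P200 replicate 1 or P20 replicate 4 was left out.

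**Figure D2:**
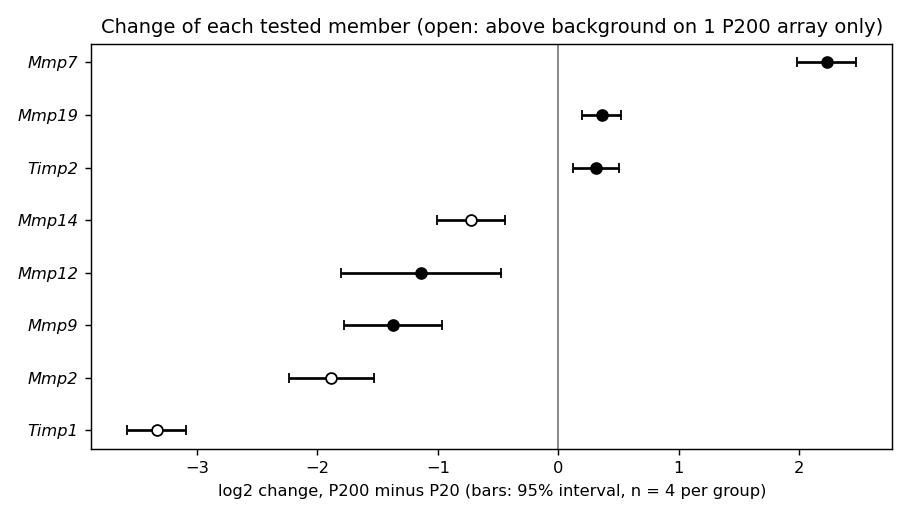
Points are the log2 change of each tested gene, P200 minus P20, and bars the 95% interval of the limma fit with 4 arrays per group. Open points were above background on 1 P200 array only. Mmp7 stands at 2.23, Mmp19 and Timp2 lie just above 0, and the other 5 lie below 0 down to Timp1 at -3.33.

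Repeat spots showed how far the dim values can be trusted. Across the 10 Timp2 spots of an array the log2 SD was 0.023 to 0.078 at P200 and 0.022 to 0.049 at P20, smaller than the SD of 0.12 and 0.11 between arrays. For Timp1 the spot SD was 0.13 to 0.50 at P200 and 0.033 to 0.088 at P20. For Mmp2 it was 0.068 to 0.40 at P200 and 0.12 to 0.27 at P20. For Timp1 and Mmp2 the largest spot SD was thus on a P200 array, where the signal was near background. Not every dim array had a large one: the 0.068 of Mmp2 was on P200 replicate 3, with 7 usable spots. Between the P200 arrays the log2 SD of the averaged signal was 0.16 for Timp1 and 0.34 for Mmp2.

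**Figure D3:**
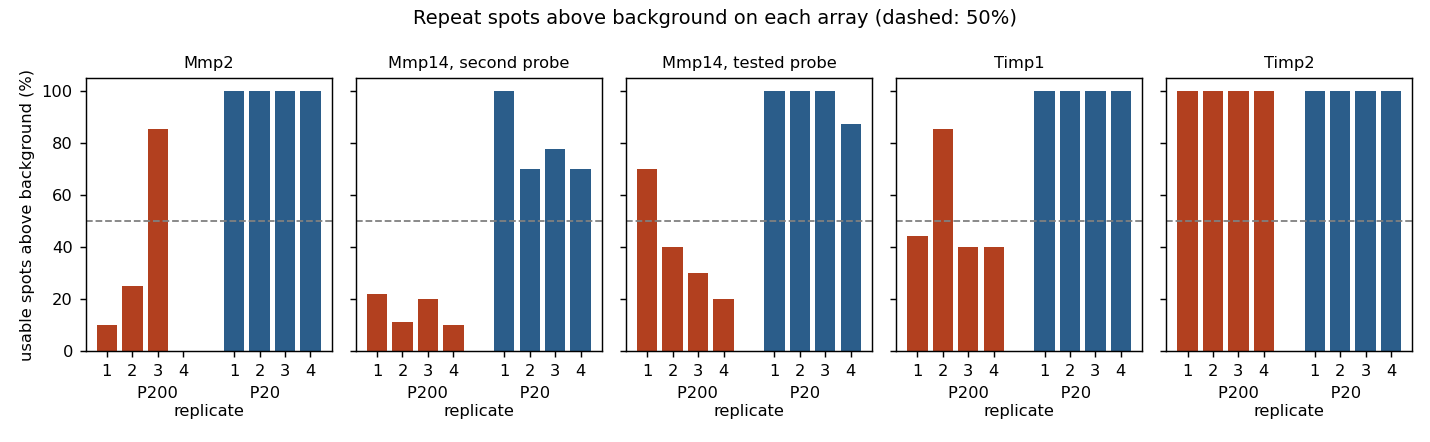
Bars give the percentage of usable spots above background on each array for the probes printed 10 times, with P200 to the left of P20; the Mmp14 probe that stands for the gene is named tested. Timp2 was above background on every usable spot of every array, while Mmp2, Timp1 and both Mmp14 probes passed 50% on at most 1 P200 array.

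Mmp7, Mmp8, Mmp12 and Mmp13 are neighbours. In the RefSeq gene order of chromosome 8 (assembly GRCr8) they stand in a run of 10 protein-coding genes, all of the protease family, that begins with Mmp13 and Mmp12 and ends with Mmp7. Mmp7 was higher and Mmp12 lower at P200. Between them Mmp1, Mmp10, Mmp8, Mmp27 and Mmp20 were above background on no array. One probe of Mmp3, the stromelysin that activates other proenzymes, read 24.7, 2.80, 5.63 and 5.90 at P200 and 9.08, 4.85, 14.3 and 7.85 at P20, above background on 1 P200 and 2 P20 arrays. Of 16 genes in and beside the run that were listed, 7 could be tested, and the 2 calls, 28.6% beside 11.5% of all genes, were those of Mmp7 and Mmp12. Those 2 were also the only genes of the run that could be tested, and Mmp12 lost its call in 10 of 21 other settings.

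**Figure D4:**
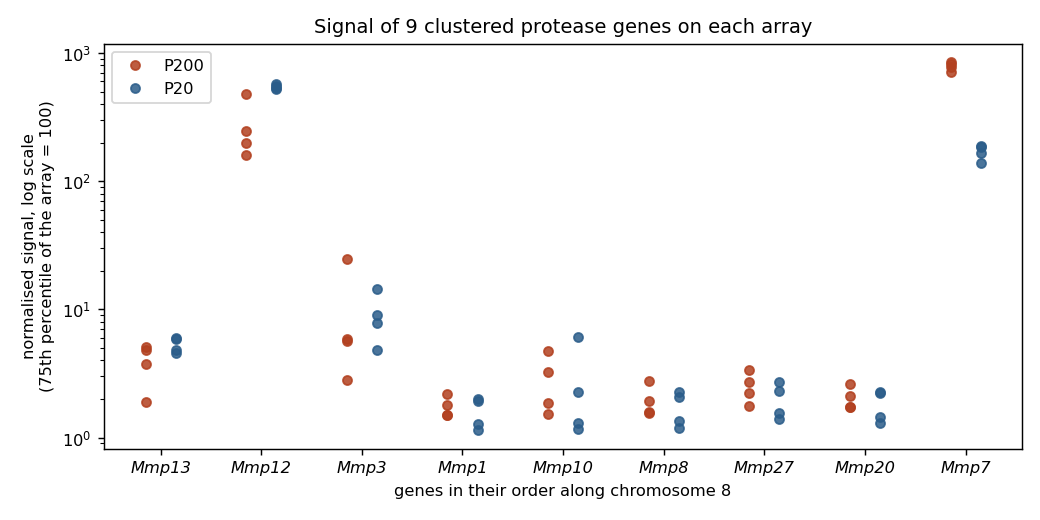
Points are the normalised signal of 9 clustered protease genes on each array, on a log axis on which the 75th percentile of an array is 100, in gene order along the chromosome, with P200 to the left of P20. Mmp12 and Mmp7 stand above 100, and the genes between them lie mostly below 10. For Mmp3 the probe described in the text is plotted.

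Promoters of this cluster are known for an AP-1 element, the site for Fos and Jun dimers, placed a short way before a TATA box. RefSeq promoter sequence (assembly GRCr8) was held for 6 of the 10 genes. The last 100 bases before the start are shown for the 3 that hold both motifs, in lower case, with matches to TGANTCA (AP-1) and TATAAA in capitals and a 5′ to 3′ reading on the plus strand.
Mmp7, chr8:13132943-13133042: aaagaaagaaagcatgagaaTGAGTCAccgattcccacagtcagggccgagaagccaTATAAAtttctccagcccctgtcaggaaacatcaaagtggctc
Mmp12, chr8:12866552-12866651: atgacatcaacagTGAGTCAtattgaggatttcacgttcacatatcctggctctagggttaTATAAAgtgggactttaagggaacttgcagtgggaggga
Mmp13, chr8:12782729-12782828: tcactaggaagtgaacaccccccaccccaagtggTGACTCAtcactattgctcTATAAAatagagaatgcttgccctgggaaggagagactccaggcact

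The TGANTCA match begins at -80 in Mmp7, -87 in Mmp12 and -66 in Mmp13, counted from the start. In windows from 250 bases before to 50 after the start, searched on both strands, 7.33% of 33469 promoters held TGANTCA and 14.2% held TATAAA. Among the 6 genes the first was found in these 3 and the second in the same 3 and in Mmp8. The ETS core AGGAAG stood in Mmp7, Mmp8, Mmp13 and Timp1 (34.5% of all promoters), and GGGCGG, the GC box, in Timp1 and Timp2 (33.1% of all). Mmp7 and Mmp12 carry TGAGTCA, and the TGACTCA of Mmp13 is the same sequence read on the other strand. The part of these letters in the changes was not tested. These matches describe the letters and are not shown to be sites.

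Of 22 AP-1, ETS, NF-kappaB and related factors on the array 19 were tested, and 0 rose, 3 fell and 16 did not pass, 15.8% called against 11.5% of all genes. Egr1, an immediate-early zinc finger factor, fell by 2.26 on the log2 scale (SE 0.18, limma adjusted p = 5.67e-05). The AP-1 subunit Junb fell by 0.49 (SE 0.07) and the NF-kappaB subunit Nfkb1 by 0.31 (SE 0.07). The classical AP-1 pair, chosen after its values were seen, gave -0.24 ± 0.17 for Fos (limma adjusted p = 0.477) and -0.31 ± 0.11 for Jun (limma adjusted p = 0.121). The list's median change was -0.14, against -0.000254 for all genes.

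The rest of the family was mostly silent. Of 16 other MMP and TIMP genes on the array 3 were tested and 1 passed, 33.3% beside 11.5% of all genes. Mmp24, a membrane-type protease known from neurons, had a signal of 69.3, 67.5, 66.4 and 73.0 at P200, against 42.2, 39.6, 44.6 and 41.1 at P20. It rose 1.65-fold (log2 change 0.72 ± 0.06 SE, n = 4 per group, limma adjusted p = 0.000101). Mmp15, another membrane-type protease, read 1044 to 2156 at P200 and 1334 to 1549 on 3 P20 arrays, but 64.3 on P20 replicate 3, and did not pass (limma adjusted p = 0.558). Mmp25 did not pass either (-0.10 ± 0.21, limma adjusted p = 0.816). Timp3 and Timp4 were above background on no array.

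Genes that act with these enzymes changed in both directions. Of 17 tested genes of protease activation, surface binding and clearance 2 rose, 3 fell and 12 did not pass, 29.4% called beside 11.5% of all genes, with a median change of -0.15. Of the 3 that fell, Cttn entered the test only through its P20 signal. The largest fall was that of Cttn, which encodes cortactin, an actin-binding protein of the invadopodia and podosomes through which cells deliver MMP14. Its signal was 6.25, 4.81, 3.22 and 2.86 at P200, against 378, 324, 342 and 337 at P20. No P200 array was above background, so Cttn was at least 43.0-fold lower there (limma adjusted p = 3.08e-07). Bounds of this kind compare the mean of the bright group with the dimmest signal above background on each dim array, or the probe's own where that is higher. Lrp1, the endocytic receptor that clears MMP9, MMP13 and TIMP complexes, rose by 0.74 ± 0.09 (limma adjusted p = 0.000933). Sdc4, a cell surface heparan sulfate proteoglycan, fell by 0.71 (SE 0.16, limma adjusted p = 0.0221).

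Other matrix-degrading systems were also measured. Of 6 tested genes of the plasminogen activator system 1 fell and 5 did not pass, and the 1 was Anxa2, a surface receptor for plasminogen (-0.27 ± 0.07, limma adjusted p = 0.0363). Of 10 tested ADAM and ADAMTS genes 1 rose and 9 did not pass. The 1 was Adamtsl4 (0.65 ± 0.11, limma adjusted p = 0.00730), which encodes a fibrillin-binding protein that lacks a protease domain. The list does not hold every such gene: of all 14 tested genes whose symbol begins with Adam, 2 rose, 1 fell and 11 did not pass. The 2 calls outside the list, named after their values were seen, rest on signal near background in 1 group. Adam32 rose by 1.54 on the log2 scale (SE 0.30, limma adjusted p = 0.0115) and was above background on 1 of 4 P20 arrays. Adamdec1, above background on 0 of 4 P200 arrays, was at least 1.33-fold lower there (limma adjusted p = 0.0366). Of 12 tested cathepsin, cystatin and glycan-degrading genes 2 fell and 10 did not pass, the lysosomal proteases Ctsh (-0.56 ± 0.09) and Ctsc (-0.39 ± 0.06). The shares called in the 3 lists were 16.7%, 10.0% and 16.7%, and 21.4% over the 14 Adam genes, beside 11.5% of all genes. The lists' median changes were -0.17, -0.01 and -0.08.

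Among 7 tested matrix proteins 1 rose, 3 fell and 3 did not pass, 57.1% called beside 11.5% of all genes, with a median change of -0.21. Of the 3 that fell, Col4a1 and Spp1 entered the test only through their P20 signal. Col4a1, a chain of basement membrane collagen IV, which MMP2 and MMP9 cut, read 3.29, 3.86, 3.36 and 4.13 at P200, against 88.6, 82.8, 75.5 and 81.0 at P20. It was at least 10.2-fold lower at P200, with no P200 array above background (limma adjusted p = 2.59e-08). Spp1, which encodes osteopontin, a substrate of several proteases of the family, was at least 1.86-fold lower on the same basis (limma adjusted p = 2.55e-07). Sparc, a collagen-binding matrix protein, fell by 0.66 (SE 0.18, limma adjusted p = 0.0445).

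Markers of other cell types that make these enzymes were set beside the results. In bulk RNA, fewer cells of a type and less RNA per cell cannot be told apart. Of 10 fibroblast markers, 6 were above background on no array, including Col1a1, Col3a1 and Pdgfra, and 4 were on all 8. Their summed signal was 911 to 1084 at P200 and 795 to 939 at P20, so the ranges overlapped, and 0 of 4 tested passed limma. Of 10 lung epithelial markers 8 were above background on no array, Epcam and Cdh1 among them, and 0 were on all 8. Of 10 neutrophil markers 9, including Mpo, Elane and S100a8, were above background on no array. Camp, an antimicrobial peptide gene, was the 1 other, and it fell by 1.13 (SE 0.09, limma adjusted p = 5.17e-05). The summed neutrophil signal was 339 to 435 at P200 and 757 to 865 at P20. Nearly all of it was Camp alone, at 319 to 416 and 739 to 847, so the sum reads 1 gene. Its part in the lower Mmp9 signal was not tested.

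The genes whose pattern over the 8 arrays came closest to a member, by the root mean square difference of log2 signal after each gene was centred on its own mean, were picked among 9754 named genes above background on all arrays. For Mmp7 they were Gadl1 (0.078) and Trim55 (0.13). For Mmp9 they were C1h16orf54 (0.069) and Csf3 (0.16), the gene of the granulocyte colony-stimulating factor. For Mmp12, whose P200 arrays spread widely, the closest were farther off, Nckap1 (0.24) and Myo1e (0.27). For Mmp19 they were Tarbp2 (0.042) and Dbp (0.043), and for Timp2 Gpr137 (0.032) and Myo7a (0.041).

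**Figure D5:**
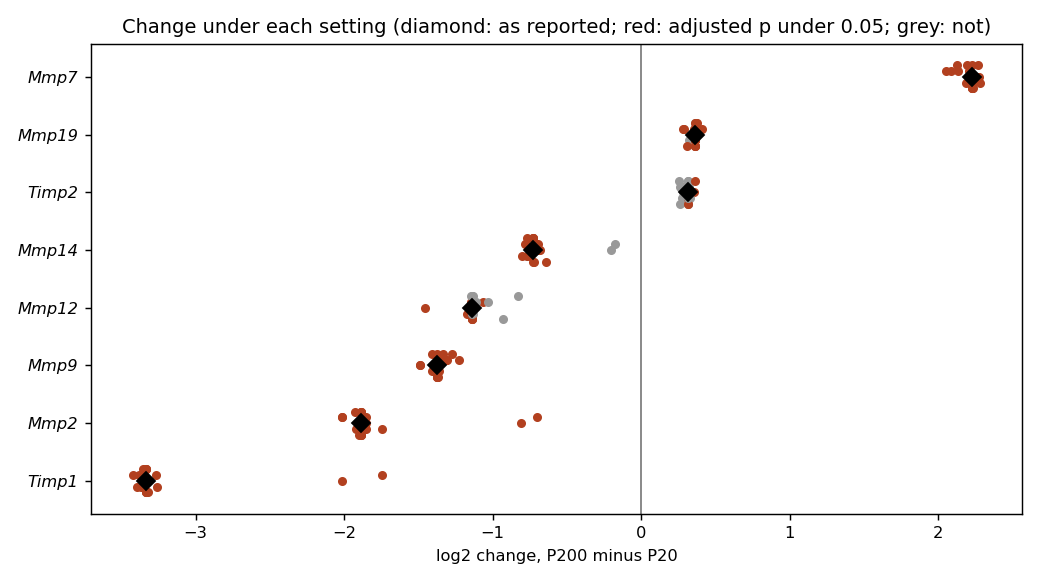
Each point is the log2 change of a tested gene, P200 minus P20, under 1 setting, with the reported value as a diamond. Red points passed at an adjusted p under 0.05 and grey points did not. No gene crossed 0, Timp2 and Mmp12 hold many grey points, and the outlying points of Timp1, Mmp2 and Mmp14 nearer 0 come from the other background treatments.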

How the data were processed

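RNA of 4 P200 and 4 P20 samples was measured on single-colour (Cy3) arrays. The authors deposited scanner files holding linear spot intensity. These were made with Agilent Feature Extraction 11.0.1.1, per the submitters' processing notes, and per the file headers with spatial and multiplicative detrending and surrogate values switched on; the processed signals were not scaled between arrays. The deposited series matrix holds raw spot median intensity, equal to the scanner files in 100.0% of values. In it, P200 columns 1, 2, 3 and 4 equal scanner files 2, 3, 4 and 1, and the scanner numbering is used throughout.

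Control spots and spots marked as outliers were left out, log2 processed signals of a probe were averaged, and the 75th percentile over probes was subtracted per array. Of 45598 probes, 84 had no usable spot on some array and were dropped, and 19449 passed the filter on background. A gene was its brightest passing probe. P200 was compared with P20 by limma 3.58.1 in R 4.3.3 (lmFit and eBayes, no covariate, two-sided, Benjamini-Hochberg adjustment over all genes tested), and the fit was tested on simulated data. Other genes were named through RefSeq (GRCr8) (21097 probes through an accession, 7108 through a current or older symbol), and 17381 kept the deposited name. Members were matched by the name in the files. From each list up to 3 genes past the test with the largest change were named. The members and lists were chosen with earlier results of these data known. Map positions were not checked against rn4 sequence, and protein sequences were not used here. Precision is limited by having 4 arrays per group.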

Additional observations from a re-analysis of the deposited data

Results flagged for a closer look

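Values of 30 named genes were checked for a single array far from the other 3 of its group, in 60 groups of 4 arrays, and chance alone marks about 1 in 20 such groups. There were 2 marks, and none of the 10 proteases and inhibitors was among them. The signal of Mmp15 on P20 replicate 3 was 64.3, against 1334 on the next lowest P20 array, and rests on 1 spot. The signal of Sdc4 on P200 replicate 1 was 211, against 322 on the next lowest P200 array.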

How the results depend on the processing

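The test was repeated under 21 other settings, of which 2 were chosen after seeing the data: requiring all usable spots of a probe to be above background, and a replicate block with the P200 numbers of the series matrix. In none did a tested member change direction. Mmp7 and Mmp9 passed in 21 of 21 settings, and Mmp2 and Timp1 in 20 of the 20 in which they could be tested. Timp2 lost the call in 13 of 21, Mmp12 in 10 of 21, Mmp14 in 3 of 19 and Mmp19 in 2 of 21. The count of called genes, 939 higher and 864 lower at P200, was 286 and 365 with arrays centred on their median, and 389 and 423 with no background filter. Members called higher numbered 1 in both settings, against 3. With median centring the SE was 0.26 for each tested member, and the Mmp19 call was lost with a change of 0.32 against 0.36. With only genes above background on all 8 arrays, 2 members were called lower, against 5, because the other 3 could not enter. Leaving out 1 array gave 665 to 865 genes higher and 599 to 823 lower, with 2 to 3 members higher and 4 to 5 lower. Slide row as a block gave 660 genes higher and 617 lower, with 2 members higher and 4 lower. Replicate numbers are shared by the groups, but the P200 numbers of scanner files and series matrix differ, and which is right is not known. Deviations of same-numbered arrays correlated at 0.025, 0.13, -0.0033 and 0.28 with the scanner numbers and at 0.23, 0.067, 0.10 and -0.11 with those of the matrix, and 1 of 4 P200 arrays correlated best with its own number either way, so neither numbering was taken to pair the samples. With the replicate block by scanner numbers 785 genes were higher and 716 lower, and 2 members were higher and 5 lower, Timp2 having an adjusted p of 0.0557 in limma. With the block by matrix numbers 649 genes were higher and 598 lower, and 2 members were higher and 4 lower, with limma adjusted p of 0.136 for Timp2 and 0.0677 for Mmp12. Signal near background limits the sizes given for Timp1, Mmp2 and Mmp14.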

Other observations

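Inducers of these enzymes and their receptors changed in both directions. Of 18 tested, 4 rose, 4 fell and 10 did not pass, 44.4% called against 11.5% of all genes, with a median change of -0.10. The TNF receptor Tnfrsf1b fell by 1.17 on the log2 scale (SE 0.11, limma adjusted p = 0.000151) and Tnf itself by 0.91 (SE 0.13, limma adjusted p = 0.00232). Osm, a cytokine known to induce TIMP1 in other cells, rose by 0.92 ± 0.23 (limma adjusted p = 0.0355).

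Of 6 endothelial markers 3 were above background on no array and 0 of 3 tested passed limma, with a summed signal of 1571 to 1917 at P200 and 1426 to 1692 at P20.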
